A study of Lithobates pipiens with 72 samples.

Results

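The transcripts described here were named after digestive enzymes of the pancreas, stomach and lysosome. They were all rows whose protein name contained trypsin, elastase, carboxypeptidase, amylase, pancreatic, pepsin, gastricsin, cathepsin or colipase, leaving out 4 rows named for antitrypsin, a trypsin inhibitor or an inter-alpha protein. The rule found 54 of 19128 transcripts. Their names placed 11 with the pancreatic endopeptidases, 4 with the pancreatic lipases and colipase, 2 with the gastric pepsins, 10 with the cathepsins and 16 with the carboxypeptidases. The other 11 matched the words without being digestive enzymes of those organs: leukocyte elastase inhibitor, a granzyme, a neurotrypsin-like row, ornithine transcarbamylase, 6 tubulin polyglutamylases, and maltase-glucoamylase, which is an enzyme of the gut wall. Neither an alpha-amylase nor a pancreatic carboxypeptidase A or B was among the members. The rule cannot find rows named only for a clone or as hypothetical, so this does not show that such transcripts were absent.

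The animals were leopard frog (Rana pipiens) tadpoles, 7 to 10 d old at the start and exposed for 96 h, and RNA came from whole bodies. The explosive trinitrotoluene (TNT) was given at 1.5, 2.3 or 3.4 mg/L. Nitroguanidine (NQ) was given at 30, 150, 750 or 3750 mg/L and methylnitroguanidine (MeNQ), which is NQ with an added methyl group, at 34, 170, 851 or 4225 mg/L, so that their doses pair up at 0.3, 1.4, 7.2 and 36 mmol/L. The explosive mixture IMX-101, which contains the acidic compound NTO, was given at 10, 20 or 40 mg/L in solutions brought to a pH of 7.5. TNT was coated onto the vessel wall from acetone that was left to evaporate before water was added, while the other agents were stirred straight into water. Every exposure had a control group of its own, kept in the same dechlorinated tap water. Each of the 18 groups had 4 libraries (A to D). A library combined 5 tadpoles of a single beaker out of 4 beakers, leaving out any whose RNA failed an integrity limit. Doses are nominal, and food (frog brittle) was given in the beakers. In whole-body RNA, fewer cells of a type and less RNA per cell cannot be told apart.

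The exocrine pancreas makes trypsin, chymotrypsin and elastase as inactive zymogens that are secreted into the gut, where trypsin switches on the others. It also makes the lipase that splits dietary fat, and colipase, the cofactor that holds this lipase on fat droplets in the presence of bile salts. Pepsins are the acid proteases of the stomach, while cathepsins act mostly inside lysosomes, and cathepsin S and related enzymes are prominent in immune cells. Carboxypeptidases trim single residues from the end of a protein, in the gut, the blood, mast cells or lysosomes according to the family member.

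Library totals ran from 1.675 to 21.656 M counts with a median of 10.786 M, and TNT control A was the smallest. Levels are given as CPM (counts per 1e6 counts of a TMM-scaled library). They are not divided by transcript length, so a member is compared across libraries and not with another member. Each exposure was filtered and scaled by itself, so levels are on a common scale only within an exposure. Between 34 and 37 members per exposure had enough counts to be tested. Every fold change is an exposed group over its own control, on the log2 scale with its standard error, and "called" means an adjusted p of 0.05 or less by edgeR's quasi-likelihood test, adjusted over all rows tested. The 3 rows that held most trypsin counts were the row named Trypsin and flagged as a precursor, trypsin isoform X3 and trypsin isoform X5. They made up 1.25% of the TMM-scaled total of the tested rows in TNT controls and 1.06% in NQ controls. These rows are close relatives, and reads of 1 may have been assigned to another.

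**Figure D1:**
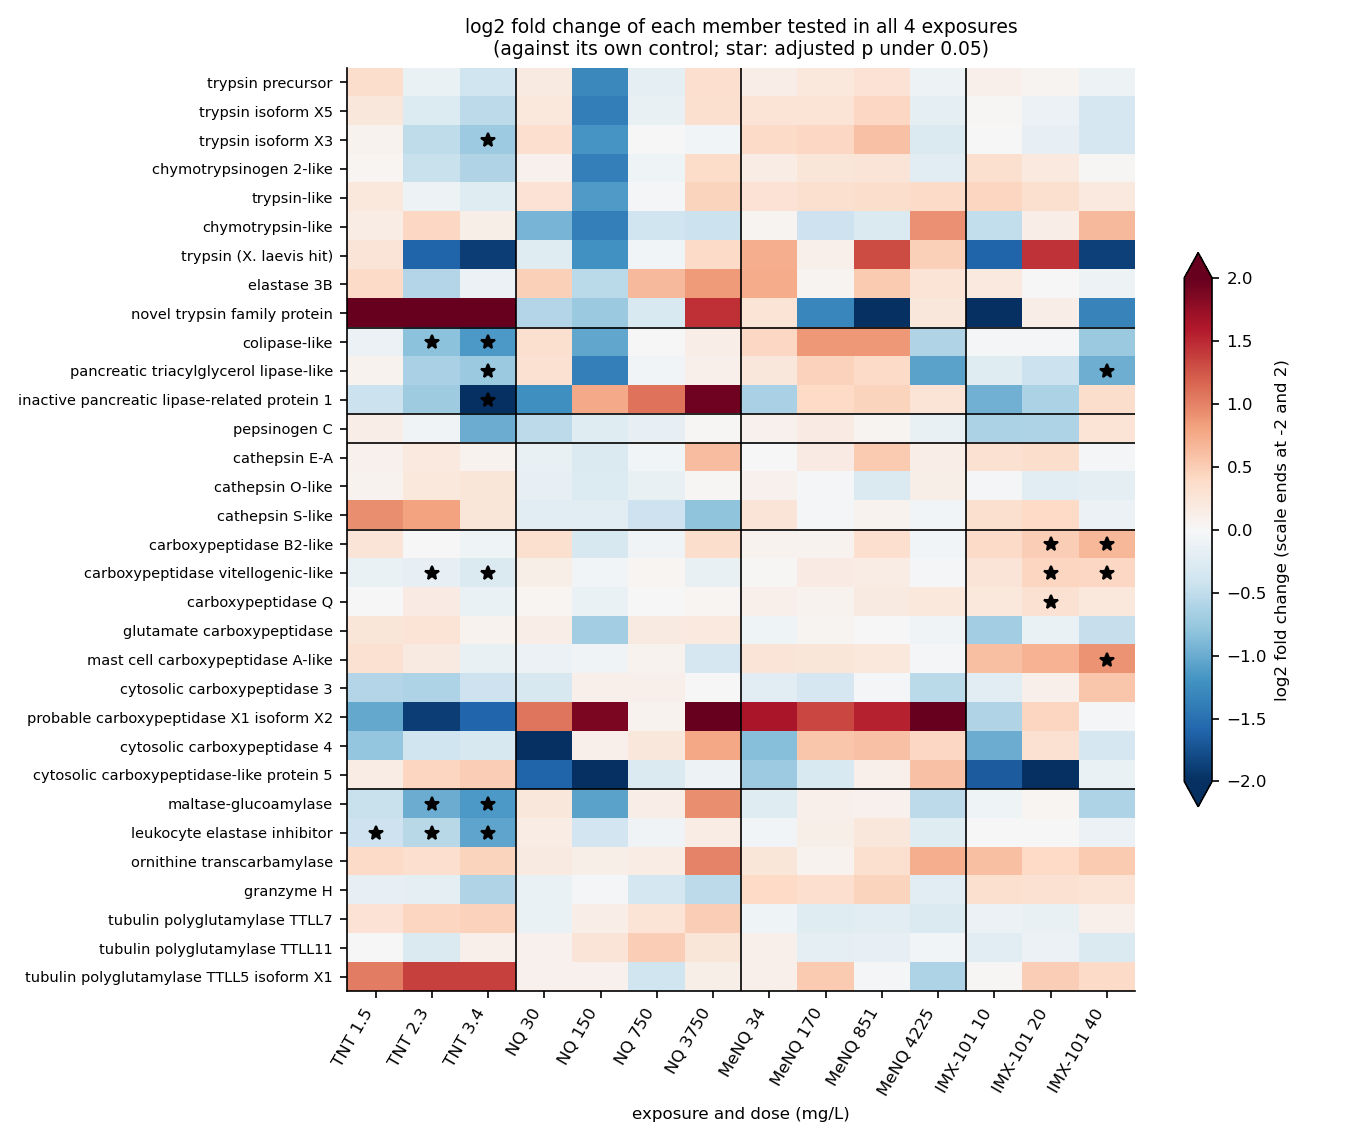
Log2 fold change against the exposure's own control for the 32 members tested in all 4 exposures (rows, grouped by role) in the 14 exposed groups (columns, by dose), on a colour scale from −2 to 2, with stars on called values. Stars on the pancreatic rows stand in the TNT columns at 2.3 and 3.4 mg/L and in the IMX-101 column at 40 mg/L, while the NQ column at 150 mg/L is blue over the trypsin rows and carries none.

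The pancreatic lipase genes were lower after TNT. At 3.4 mg/L all 3 tested members of the lipase group fell, colipase-like, pancreatic triacylglycerol lipase-like and inactive pancreatic lipase-related protein 1, and 1 of 10 tested endopeptidases, trypsin isoform X3, fell with them. Maltase-glucoamylase, which frees glucose from starch fragments at the brush border of the intestine, and leukocyte elastase inhibitor, a serpin that blocks serine proteases, fell too, as did carboxypeptidase vitellogenic-like (CPVL). No member rose. In total 7 of 34 tested members were called at 3.4 mg/L, or 20.6%, against 12% of all 12648 rows, and 5.61% of all rows fell while 6.37% rose. At 2.3 mg/L 4 members were called, all lower, or 11.8% against 5.39% of all rows (2.34% lower). At 1.5 mg/L 1 member was called, or 2.94% against 2.76% of all rows (1% lower), so that the share among the members was near that of all rows.

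Colipase-like stood at 869, 561, 458 and 640.1 CPM in libraries A to D at 3.4 mg/L TNT, against 1237, 1166, 1649 and 1519 CPM in TNT controls. Every exposed library lay below every control. The log2 fold change was −1.14 ± 0.20 (edgeR adjusted p = 0.00176). At 2.3 mg/L its libraries held 829, 1068, 617 and 626 CPM, a change of −0.83 ± 0.20 (edgeR adjusted p = 0.0287), again with no overlap. That call held in 3 of 8 fits that left out 1 library, and was lost without 2.3 mg/L library A, C or D or without control C or D (edgeR adjusted p up to 0.0922), while the call at 3.4 mg/L held in all 8. At 1.5 mg/L the 4 libraries, between 1175 and 1393 CPM, lay within the range of the controls.

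Pancreatic triacylglycerol lipase-like, the fat-splitting enzyme that colipase serves, had 524, 257, 347 and 370.1 CPM at 3.4 mg/L, against 606, 605, 713 and 584 CPM in TNT controls. The groups did not overlap, though exposed library A came close to the lowest control. The change was −0.74 ± 0.19 (edgeR adjusted p = 0.0176), and it was called in 5 of 8 fits that each left out 1 library. Without exposed library B, exposed library C or control C the adjusted p was 0.0511, 0.0586 or 0.0525. At 2.3 mg/L all libraries were below all controls at −0.66 ± 0.19, without passing the test (edgeR adjusted p = 0.0622).

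Inactive pancreatic lipase-related protein 1, a relative of the lipase with little or no activity on fat in mammals, had 4.51, 4.30, 2.67 and 9.05 CPM at 3.4 mg/L, against 13.9, 25.2, 17.3 and 28.8 CPM in TNT controls. It changed by −2.06 ± 0.35 (edgeR adjusted p = 0.00115). Each of the 3 lipase-group members was lower in all 4 exposed libraries than in any control, and their median change was −1.14 beside 0.06 over all rows. How many of all rows were separated in this way was not counted. The untested member of the group, pancreatic lipase isoform X1, had too few counts.

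The endopeptidases gave a less uniform picture at 3.4 mg/L TNT. Trypsin isoform X3 had 1859, 1327, 1235 and 1956 CPM, against 2129, 3214, 3018 and 2155 CPM in TNT controls. It was below all controls in each exposed library, at −0.72 ± 0.18 (edgeR adjusted p = 0.015), and was called in 6 of 8 fits that left out 1 library, with edgeR adjusted p of 0.0567 without exposed library B and 0.0555 without exposed library C. Among the uncalled rows, the trypsin precursor had 6750.0, 4468, 3911 and 5634 CPM, against 5997, 6084, 7570.0 and 7639 CPM in TNT controls, so that exposed library A lay inside the control range, and its change of −0.39 ± 0.19 was not called (edgeR adjusted p = 0.248). Trypsin isoform X5 changed by −0.52 ± 0.21 (edgeR adjusted p = 0.153). With the 4 rows of the trypsin name summed before the test the change was −0.52 ± 0.18 (edgeR adjusted p = 0.0814). A further row, matched to a Xenopus laevis trypsin, had 71.8, 16.5, 12.8 and 18.3 CPM, against 22.1, 133.5, 137 and 140.1 CPM in TNT controls, and in each group library A stood apart from the other libraries. Its change was −1.88 ± 0.71 (edgeR adjusted p = 0.117). Chymotrypsinogen 2-like, a precursor of the other main gut protease, changed by −0.60 and overlapped its controls (edgeR adjusted p = 0.237). Of the 10 tested endopeptidases 8 had a negative value and 2 a positive one, with a median of −0.46. At 1.5 mg/L TNT 9 had a positive value and 1 a negative one, with a median of 0.22, and none was called.

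**Figure D2:**
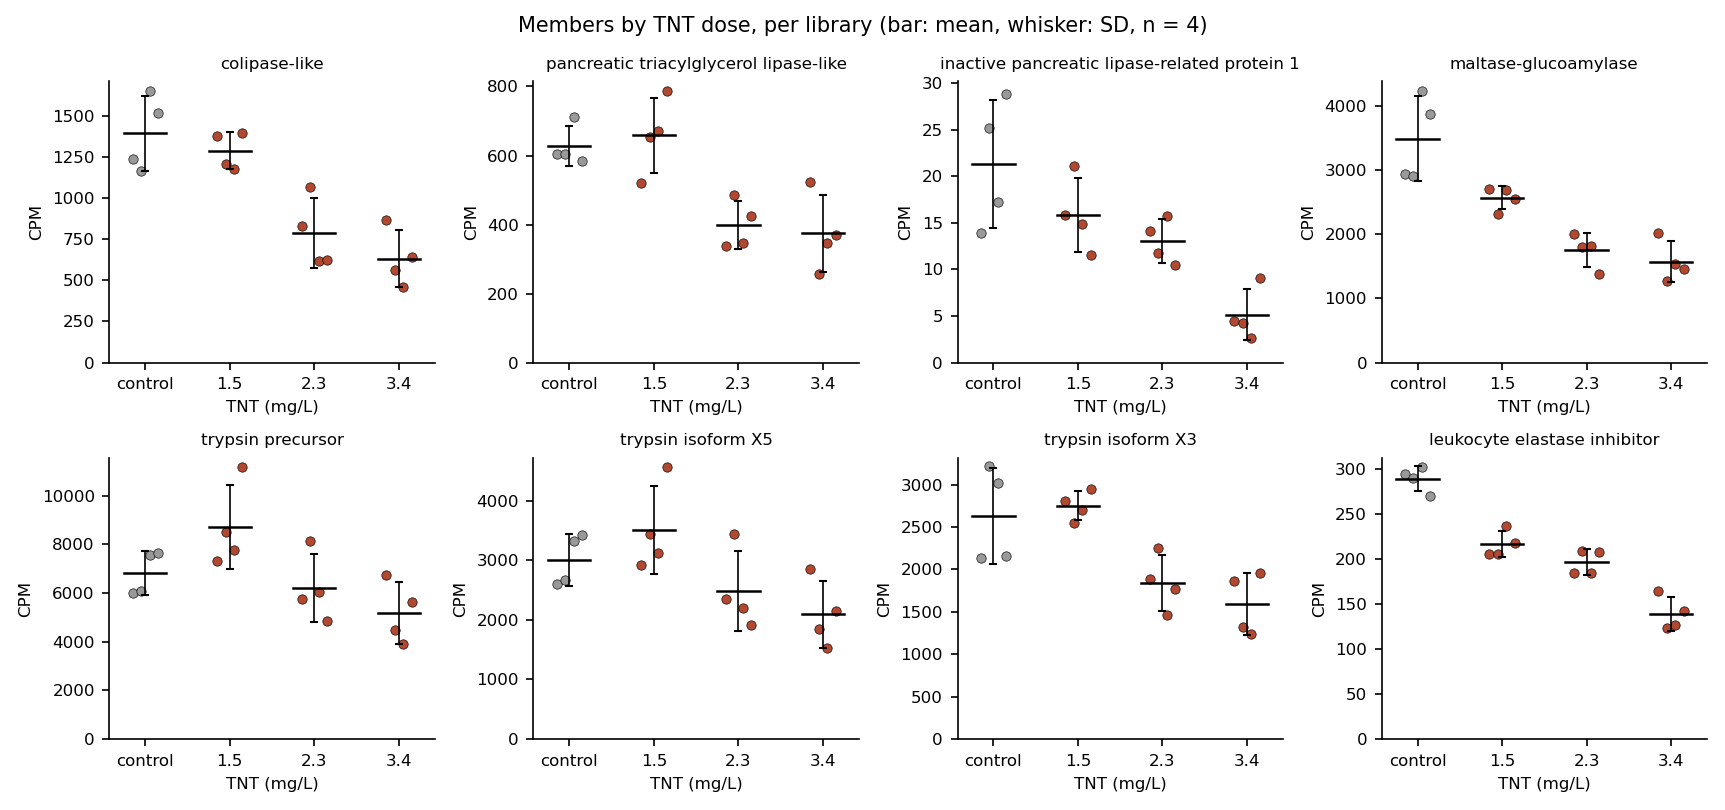
CPM per library (points, A to D) of 8 members by TNT dose in mg/L, with controls at 0, bars marking group means and whiskers the SD. Group means of colipase, maltase-glucoamylase and leukocyte elastase inhibitor are lower at each higher dose, while the trypsin precursor row still overlaps its controls at 3.4 mg/L.

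Maltase-glucoamylase had 2025, 1272, 1530.0 and 1454 CPM at 3.4 mg/L TNT, against 2944, 2907, 4229 and 3867 CPM in TNT controls, with no overlap. The change was −1.15 ± 0.16 at 3.4 mg/L (edgeR adjusted p = 0.000219) and −0.99 ± 0.16 at 2.3 mg/L (edgeR adjusted p = 0.00138). Leukocyte elastase inhibitor was the member called at every TNT dose. Its libraries ran from 270 to 302 CPM in TNT controls, from 205 to 237 CPM at 1.5 mg/L, from 185 to 209 CPM at 2.3 mg/L and from 123 to 164 CPM at 3.4 mg/L. Exposed libraries were below all controls at each dose. The changes were −0.42 ± 0.09, −0.56 ± 0.09 and −1.06 ± 0.09 from low to high dose, with edgeR adjusted p of 0.0169, 0.00121 and 3.24e-06. The first of them was called in 5 of 8 fits that left out 1 library, and the others in all 8.

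CPVL, a serine carboxypeptidase found in macrophages in humans, had 183, 183, 187 and 181 CPM at 3.4 mg/L TNT, against 227, 224, 239 and 210 CPM in TNT controls. The change was small and uniform, −0.30 ± 0.05 (edgeR adjusted p = 0.000542), and −0.17 ± 0.05 at 2.3 mg/L (edgeR adjusted p = 0.0479), where it was called in 1 of 8 fits that left out 1 library. None of the other 8 tested carboxypeptidases was called at 3.4 mg/L. Among the cathepsins, the 4 tested members had positive values with a median of 0.24 and none was called. Cathepsin S-like, which in mammals serves antigen presentation, had 8.34, 8.97, 8.37 and 8.54 CPM at 2.3 mg/L, against 3.48, 4.43, 4.23 and 7.30 CPM in TNT controls. These groups did not overlap, but the change of 0.80 ± 0.26 did not pass (edgeR adjusted p = 0.106), and at 3.4 mg/L the libraries overlapped.

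Pepsinogen C, the zymogen of a stomach pepsin, had 1.78, 0.94, 2.38 and 2.26 CPM at 3.4 mg/L TNT, against 2.90, 2.49, 5.86 and 3.37 CPM in TNT controls. All 4 exposed libraries were lower, yet at these low counts the change of −0.99 ± 0.48 was not called (edgeR adjusted p = 0.238). Granzyme H, a protease of cytotoxic lymphocytes, was also below all controls at −0.61 ± 0.19 (edgeR adjusted p = 0.0525).

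Some markers of the organs that make these enzymes were lower in the same libraries. Of 7 tested enterocyte markers 5 fell at 3.4 mg/L TNT, with a median of −0.87, and they included intestinal fatty acid binding protein fabp2 (−1.68) and the sugar transporter SGLT1-like row (−0.92). The summed level of the enterocyte list was 1419 to 2672 CPM at 3.4 mg/L, against 3627 to 4959 CPM in TNT controls. Of 5 tested stomach markers 2 fell, the acid pump potassium-transporting ATPase alpha chain 1 (−0.99) and mucin-5AC-like (−0.91), and the list summed to 2965 to 4394 CPM, against 5278 to 8375 CPM in TNT controls. Of 5 tested acinar markers other than the members 1 fell, the pancreatic protein disulfide isomerase PDIA2 (−0.78, edgeR adjusted p = 0.00998). The acinar list summed to 1228 to 1814 CPM, against 2073 to 3327 CPM in TNT controls. PDIA2 averaged 1651 CPM over the 72 libraries, so this sum mostly repeats that row. The acid pump row averaged 4881 CPM over the same libraries, so it weighs heavily in the stomach sum. The islet markers of the pancreas went the other way, with 0 of 4 tested called and a median of 0.82. Their list summed to 20.47 to 30.22 CPM, against 4.06 to 24.19 CPM in TNT controls. Of 10 tested leukocyte markers 3 fell. The part of these cell types in the enzyme results was not tested.

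Some other lysosomal genes were called at the highest TNT dose. Of 20 tested genes of the lysosome list 7 rose at 3.4 mg/L TNT and 1 fell, while 6.37% of all rows rose and 5.61% fell. The median of the list was 0.27, beside 0.24 for the 4 tested cathepsins. Lysosomal acid lipase, which splits lipids inside lysosomes, rose by 3.30, legumain, a lysosomal cysteine protease, by 1.53 and Niemann-Pick C1, a lysosomal cholesterol exporter, by 1.19, while lysosomal alpha-glucosidase fell by 1.10. No tested cathepsin was called, and the difference between the lists was not tested.

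The 3 main trypsin rows were below all controls at an intermediate NQ dose, without reaching the threshold. At 150 mg/L NQ the trypsin precursor had 2262, 2784, 2284 and 1985 CPM, against 7192, 5641, 5894 and 4005 CPM in NQ controls. Trypsin isoform X5 had 1257, 1439, 1083 and 936 CPM, against 3973, 3195, 3217 and 1972 CPM. Chymotrypsinogen 2-like had 203, 232, 248 and 184 CPM, against 811, 484, 585 and 366 CPM. For these rows, for trypsin isoform X3 and for trypsin-like, every library at 150 mg/L was below every control, with control D the lowest of the controls in each of them. The share of all rows with no overlap at this dose was not counted.

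All 9 tested endopeptidases had negative values at 150 mg/L NQ, with a median of −1.21 beside 0.01 over all rows. The trypsin precursor changed by −1.29 ± 0.24, trypsin isoform X5 by −1.39 ± 0.26 and trypsin isoform X3 by −1.19 ± 0.23, each with an edgeR adjusted p of 0.116. Pancreatic triacylglycerol lipase-like changed by −1.36 (edgeR adjusted p = 0.243) and colipase-like by −1.04 (edgeR adjusted p = 0.582). The remaining tested member of the lipase group, inactive pancreatic lipase-related protein 1, had a positive value of 0.75 at low counts, with an interval of −1.77 to 3.27 (edgeR adjusted p = 1). The edgeR test called 0 of 36 tested members and 0.0154% of all 12969 rows. At an unadjusted p under 0.05 were 11 members, beside 979 of all rows. The DESeq2 Wald test called 6 members, all lower: the trypsin precursor, isoforms X3 and X5, trypsin-like, chymotrypsinogen 2-like and the lipase. Its share of calls over all rows was not counted, and the edgeR share is no background for it. Leaving out NQ control D made 3 edgeR calls. The 3 main trypsin rows made up 0.431% of the TMM-scaled total at 150 mg/L and 1.06% in NQ controls.

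The acinar markers that are not members had a median of −1.16 at 150 mg/L NQ, with 0 of 5 called, while the enterocyte and stomach lists had medians of −0.20 and −0.07. The acinar list summed to 425 to 729 CPM at 150 mg/L, against 765 to 1783 CPM in NQ controls. PDIA2 holds most of this sum too. Over the doses the pattern was not graded. The trypsin precursor ran from 4005 to 7192 CPM in NQ controls, from 4427 to 8855 CPM at 30 mg/L, from 1985 to 2784 CPM at 150 mg/L, from 4287 to 6573 CPM at 750 mg/L and from 5179 to 9373 CPM at 3750 mg/L. Of these groups, 150 mg/L alone lay wholly outside the control range.

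At 30 and 750 mg/L NQ edgeR called 0 members each and 0% of all rows. There was 1 member at each dose with an unadjusted p under 0.05, beside 1057 and 875 of all 12969 rows. The DESeq2 Wald test called 0 members as well, and its share over all rows was not counted. At 3750 mg/L NQ 1 of 36 members was called, or 2.78%, against 4.48% of all rows (3.09% lower). This was cathepsin L2, a lysosomal cysteine protease, which had 0.114, 0, 0 and 0 CPM, against 18.0, 0.579, 10.6 and 0.408 CPM in NQ controls. The exposed group held 1 count and the controls 282, a ratio of controls over exposed of 251 with an exact binomial interval of 44.8 to 9960.0 that covers counting error only. The fitted change was −7.58 ± 1.32 (edgeR adjusted p = 0.00384) and was called in all 8 fits that left out 1 library. With 1 exposed count its size is approximate. The controls themselves ranged widely, and the 3 lower doses held between 3.60 and 19.6 CPM in every library.

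In the other exposures cathepsin L2 was not called at the highest dose. At 40 mg/L IMX-101 it had 4 counts of 26.59 M, all in library D, against 190 of 64.026 M in IMX-101 controls, and its −4.19 ± 1.74 did not pass (edgeR adjusted p = 0.201). At 4225 mg/L MeNQ it had 59 counts of 54.977 M, against 122 of 65.198 M in MeNQ controls, and the groups overlapped. In TNT libraries it had too few counts to be tested, with 2 counts of 42.818 M at 3.4 mg/L, against 20 of 31.103 M in TNT controls.

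Some uncalled members were shifted in all 4 libraries at 3750 mg/L NQ, and how many of all rows were so shifted was not counted. Cathepsin S-like had 6.71, 4.61, 7.82 and 8.12 CPM, against 12.9, 9.91, 15.5 and 9.39 CPM in NQ controls, a change of −0.81 ± 0.24 (edgeR adjusted p = 0.0745). Granzyme H was lower by the same pattern at −0.53 ± 0.17 (edgeR adjusted p = 0.0867). Of 10 tested leukocyte markers 4 fell in these libraries, with a median of −0.77, among them mast cell protease 1A-like (−2.08). Their part in the cathepsin and granzyme values was not tested. Cathepsin E-A, an aspartic protease, had 46.3, 63.3, 58.4 and 53.5 CPM at 3750 mg/L NQ, all above the NQ controls at 35.9, 30.6, 37.9 and 39.9 CPM, and its 0.62 ± 0.37 was far from the threshold (edgeR adjusted p = 0.461). Ornithine transcarbamylase, the urea cycle enzyme which is no amylase, stood at 0.99 ± 0.30 (edgeR adjusted p = 0.0794).

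MeNQ gave no called member at any dose. By edgeR 0 of 37 members passed at 34, 170, 851 and 4225 mg/L, and 0%, 0.156%, 0.437% and 0.393% of all 13496 rows were called. At an unadjusted p under 0.05 were 2, 2, 9 and 5 members, beside 652, 1294, 1598 and 1352 of all rows. The DESeq2 Wald test called 0 members at the 3 lower doses and 1 at 4225 mg/L, pancreatic triacylglycerol lipase-like. Its share of calls over all rows was not counted. That lipase had 108, 119.8, 294 and 175 CPM at 4225 mg/L, against 523, 389.8, 338 and 216 CPM in MeNQ controls. Exposed library C lay above control D, and the change was −1.07 ± 0.34 with an interval of −1.78 to −0.37 (edgeR adjusted p = 0.225). The trypsin precursor changed by −0.10 in the same libraries (edgeR adjusted p = 0.994).

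NQ and MeNQ were compared as responses at matched molar doses, 4 pairs in all, with p adjusted over all rows within each dose. The compounds were given in separate experiments with controls of their own, so compound and experiment cannot be told apart in these contrasts. At 1.4 mmol/L the responses of trypsin isoform X3 and trypsin isoform X5 differed. Trypsin isoform X3 had 2335, 1978, 2152 and 2415 CPM at 170 mg/L MeNQ, against 1837, 1581, 1739 and 1483 CPM in MeNQ controls, while at 150 mg/L NQ it had 1054, 882, 584 and 675 CPM, against 1907, 2375, 1822 and 1157 CPM in NQ controls. All MeNQ libraries were above their controls and all NQ libraries below theirs. The MeNQ response exceeded the NQ response by 1.61 ± 0.33 on the log2 scale, with an interval of 0.93 to 2.29 (edgeR adjusted p = 0.0306). For trypsin isoform X5 the difference was 1.68 ± 0.35, with an interval of 0.96 to 2.39 (edgeR adjusted p = 0.0326).

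These calls were 2 of 38 members, or 5.26%, against 0.128% of all 14068 rows (0.0426% with a higher MeNQ response). Both are trypsin rows whose control-centred levels correlated over the 72 libraries (Pearson's r = 0.882). They are therefore not independent results, and the share counts related rows separately. The calls were lost in many of the 16 fits that left out 1 library: isoform X3 was called in 5 and isoform X5 in 6, with adjusted p up to 0.0955 and 0.108. Among the uncalled rows the other endopeptidases had 6 positive values and 1 negative one, and the lipase group 2 positive and 1 negative, that of inactive pancreatic lipase-related protein 1 (−0.36 ± 1.60). The difference was 1.51 ± 0.34 for the trypsin precursor (edgeR adjusted p = 0.0582), 1.83 for pancreatic triacylglycerol lipase-like (edgeR adjusted p = 0.141) and 1.91 for colipase-like (edgeR adjusted p = 0.194). Summed over the 4 rows of the trypsin name it was 1.57 ± 0.33 (edgeR adjusted p = 0.036).

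**Figure D3:**
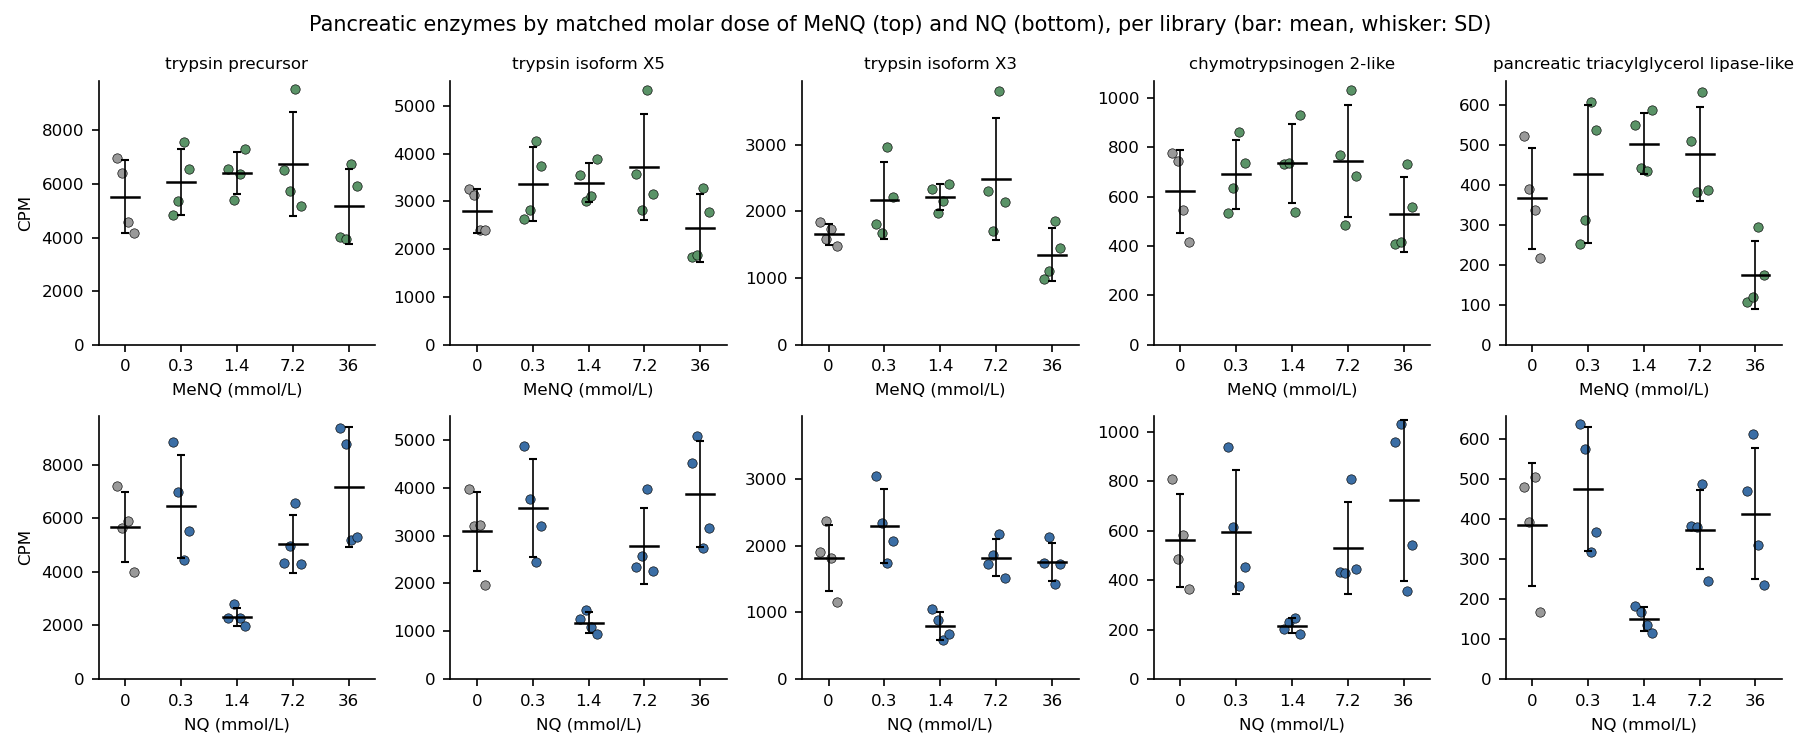
CPM per library (points, A to D) of 5 pancreatic members by dose in mmol/L, with controls at 0, for MeNQ (top row) and NQ (bottom row), bars marking group means and whiskers the SD. The NQ group at 1.4 mmol/L sits apart below its controls, between 1985 and 2784 CPM for the trypsin precursor, and the MeNQ group at that dose, between 5391 and 7308 CPM, does not.

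At 0.3 mmol/L edgeR called 0 of 38 members different between the compounds, beside 0.0213% of all rows. At an unadjusted p under 0.05 were 3 members and 1093 of 14068 rows. The DESeq2 Wald test called 0 members. At 7.2 mmol/L edgeR again called 0, beside 0.114% of all rows, with 4 members and 1200 of all rows at an unadjusted p under 0.05. The DESeq2 Wald test called 1 member, granzyme H. Its share of calls over all rows was not counted at either dose. At 36 mmol/L 2 members differed, or 5.26%, against 0.626% of all rows (0.327% with a higher and 0.299% with a lower MeNQ response). Cathepsin L2 had 2.34, 0.923, 0.236 and 0.72 CPM at 4225 mg/L MeNQ, against 0.416, 1.54, 0.81 and 4.24 CPM in MeNQ controls, and the NQ values given above were near 0. The difference was 6.93 ± 1.53 with an interval of 3.82 to 10.04 (edgeR adjusted p = 0.0222). The NQ group at this dose held 1 count, so this size and its symmetric interval are approximate. It was called in 10 of 16 fits that left out 1 library, with values from 5.98 to 8.72. Tubulin polyglutamylase TTLL7, an enzyme that modifies microtubules, differed by −0.80 ± 0.19 with an interval of −1.18 to −0.41 (edgeR adjusted p = 0.0345), called in 6 of 16 such fits. It had 17.6, 15, 14.2 and 14.4 CPM at 4225 mg/L MeNQ, all below the MeNQ controls at 18.3, 19.2, 19.1 and 17.8 CPM. At 3750 mg/L NQ it had 19.7, 21.2, 29.1 and 21.6 CPM, all above the NQ controls at 15, 17.8, 16.0 and 16.3 CPM.

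At 36 mmol/L no pancreatic row was called different between the compounds. For pancreatic triacylglycerol lipase-like the difference was −1.20 ± 0.49, with an interval of −2.20 to −0.19 (edgeR adjusted p = 0.284). The missed threshold does not show that the compounds acted alike on it.

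After IMX-101, 3 carboxypeptidases that are not pancreatic gut enzymes were higher and the pancreatic lipase was lower. At 40 mg/L 3 of 10 tested carboxypeptidases rose: carboxypeptidase B2-like, whose mammalian relative is a plasma enzyme that slows clot breakdown, CPVL, and mast cell carboxypeptidase A-like, a protease of mast cell granules. The family did not move as a whole, with 5 positive and 5 negative values and a median of 0.09. Pancreatic triacylglycerol lipase-like fell. These 4 calls were 11.4% of 35 tested members, against 7.51% of all 12542 rows (3.84% higher and 3.68% lower). At 20 mg/L 3 carboxypeptidases rose, or 8.57%, against 5.21% of all rows (2.66% higher), and at 10 mg/L none was called, against 0.989% of all rows. The IMX-101 controls and the 10 mg/L group had 2 sequencing runs on lane 8, whereas the 20 and 40 mg/L groups had a single run on lane 1 of a second run set, with 5.574 to 7.698 M counts, against 11.325 to 18.011 M in the other groups. For 20 and 40 mg/L the exposure and the run set cannot be told apart.

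Carboxypeptidase B2-like had 255, 210.1, 200.4 and 207 CPM at 40 mg/L IMX-101, against 126, 152, 156 and 115 CPM in IMX-101 controls. The groups were well apart, and the change was 0.67 ± 0.11 (edgeR adjusted p = 0.00167). At 20 mg/L it was 0.49 ± 0.11 (edgeR adjusted p = 0.0202), called in 4 of 8 fits that left out 1 library. CPVL had 182, 184, 179 and 182 CPM at 40 mg/L, against 128, 148, 147 and 124 CPM in IMX-101 controls. It changed by 0.41 ± 0.07 at 40 mg/L (edgeR adjusted p = 0.00133) and by 0.43 ± 0.07 at 20 mg/L (edgeR adjusted p = 0.00208), and both calls held in all 8 fits that left out 1 library. CPVL thus rose with IMX-101 and fell with TNT, in libraries whose controls stood at different levels.

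Mast cell carboxypeptidase A-like had 11.7, 10.4, 10.3 and 10.5 CPM at 40 mg/L, against 5.43, 6.73, 5.83 and 4.94 CPM in IMX-101 controls, a change of 0.90 ± 0.20 (edgeR adjusted p = 0.0139). In the same libraries 2 of 10 tested leukocyte markers fell, interferon regulatory factor 8 (−0.64) and cytochrome b-245 light chain-like (−0.62), and the list had a median of −0.62. The list summed to 168.1 to 190.4 CPM at 40 mg/L, against 248.6 to 291.9 CPM in IMX-101 controls. Another mast cell protease on it, mast cell protease 1A-like, stood at −0.63 ± 0.25 (edgeR adjusted p = 0.182). The part of these cells in the carboxypeptidase value was not tested. Carboxypeptidase Q, a secreted and lysosomal peptidase, rose by 0.30 ± 0.07 at 20 mg/L (edgeR adjusted p = 0.0178), called in 5 of 8 fits that left out 1 library, and at 40 mg/L its 0.22 ± 0.07 was not called (edgeR adjusted p = 0.0633). The other members of this family did not pass at any IMX-101 dose.

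Within the first run set, the libraries at 10 mg/L could be set against controls of the same lane and run number. There carboxypeptidase B2-like had 199, 164, 177 and 179 CPM, against 126, 152, 156 and 115 CPM in IMX-101 controls, all above, at 0.39 ± 0.11 (edgeR adjusted p = 0.127). All 4 libraries were also above all controls for CPVL (0.25 ± 0.07, edgeR adjusted p = 0.094), for carboxypeptidase Q (0.21 ± 0.07, edgeR adjusted p = 0.181) and for mast cell carboxypeptidase A-like (0.59 ± 0.20, edgeR adjusted p = 0.25). The share of all rows lying wholly above their controls at this dose was not counted. These 4 members were picked because they were called at 20 or 40 mg/L against the same control libraries. The comparisons share those controls, so the values at 10 mg/L are no independent check. edgeR called 0 members at 10 mg/L, with 7 members and 1250 of all 12542 rows at an unadjusted p under 0.05. The DESeq2 Wald test called 5, these 4 carboxypeptidases and trypsin-like, all higher, and its share over all rows was not counted. Within the second run set, 40 mg/L against 20 mg/L gave 0 called members by edgeR, beside 0.303% of all rows. At an unadjusted p under 0.05 were 6 members and 1243 of 12542 rows.

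**Figure D4:**
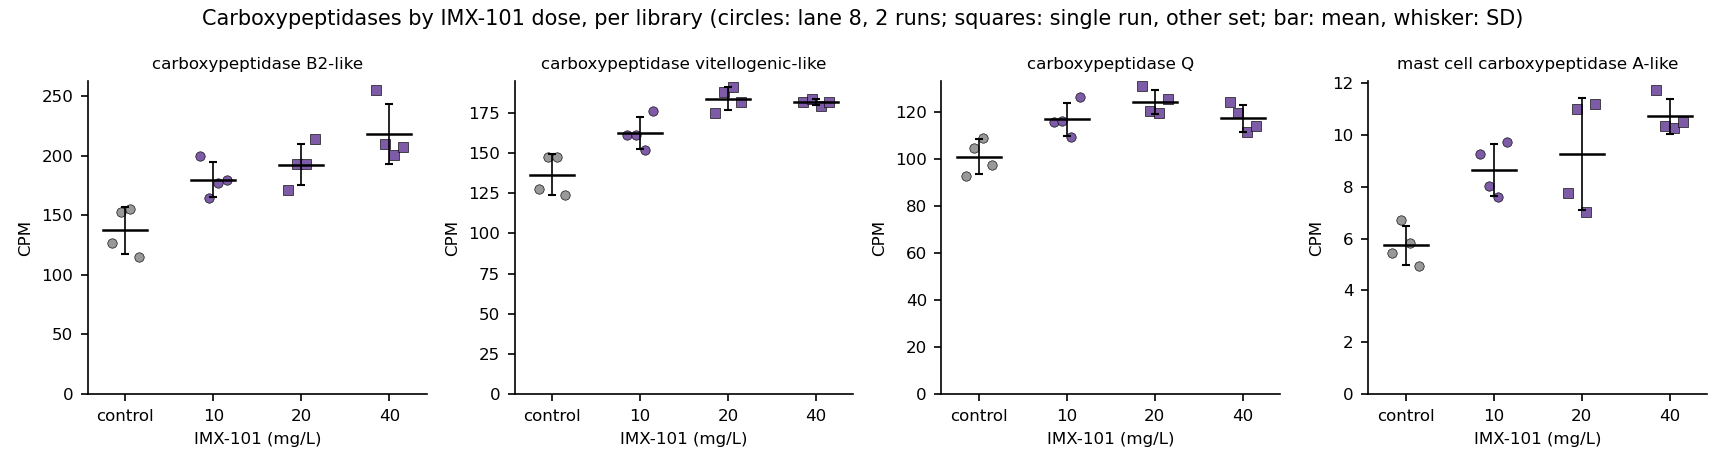
CPM per library of 4 carboxypeptidases by IMX-101 dose in mg/L, with controls at 0, circles for libraries of lane 8 with 2 runs, squares for libraries with a single run of the second run set, bars marking group means and whiskers the SD. Libraries at 10 mg/L (circles) lie above their controls for all 4 members, without a call by edgeR. The 20 and 40 mg/L libraries (squares) differ from controls in run set as well as dose.

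Pancreatic triacylglycerol lipase-like had 208, 204, 194 and 125 CPM at 40 mg/L IMX-101, against 272, 473, 368 and 323 CPM in IMX-101 controls. All exposed libraries were lower, and the change was −0.97 ± 0.23 (edgeR adjusted p = 0.0179). It was lost without exposed library D (−0.83, edgeR adjusted p = 0.0514) or without control B (−0.81, edgeR adjusted p = 0.0573). Colipase-like changed by −0.75 ± 0.29 (edgeR adjusted p = 0.163) and maltase-glucoamylase by −0.61 ± 0.23 (edgeR adjusted p = 0.143), while the trypsin precursor, at 7302, 5643, 6032 and 4974 CPM against 5320.0, 7890.0, 5908 and 6578 CPM in IMX-101 controls, overlapped them in 3 of 4 libraries, library D lying lower. None of the 5 acinar, 7 enterocyte or 7 stomach markers tested was called at this dose.

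Because lipase and trypsin come from the same cells, the lipase level per 100 CPM of the 3 main trypsin rows was also described, with no test. After TNT this ratio overlapped its controls, at 4.24 ± 0.82 at 3.4 mg/L and 5.06 ± 0.51 in TNT controls (SD, n = 4 each), while colipase per 100 CPM of trypsin did not, at 6.57 to 7.58 at 3.4 mg/L and 6.35 to 8.30 at 2.3 mg/L, against 9.75 to 11.9 in TNT controls. After MeNQ the colipase ratio went the other way at the middle doses, at 6.19 to 7.19 at 170 mg/L and 5.99 to 6.95 at 851 mg/L, against 2.64 to 5.67 in MeNQ controls. At 150 mg/L NQ, where trypsin and lipase were both low, the lipase ratio was 3.49 ± 0.36, beside 3.54 ± 0.93 in NQ controls. At the highest MeNQ dose it was 1.88 ± 0.40, with libraries from 1.58 to 2.47, against 3.60 ± 0.70 and 2.69 to 4.33 in MeNQ controls, so that the groups were apart although neither gene was called. Over the IMX-101 doses it was 2.95 ± 0.37 in controls, 2.40 ± 0.33 at 10 mg/L, 2.22 ± 0.50 at 20 mg/L and 1.74 ± 0.24 at 40 mg/L, and the libraries at 40 mg/L, from 1.46 to 2.00, did not reach the controls, from 2.54 to 3.30. These 2 upper doses differed from the IMX-101 controls in run set, as stated above.

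**Figure D5:**
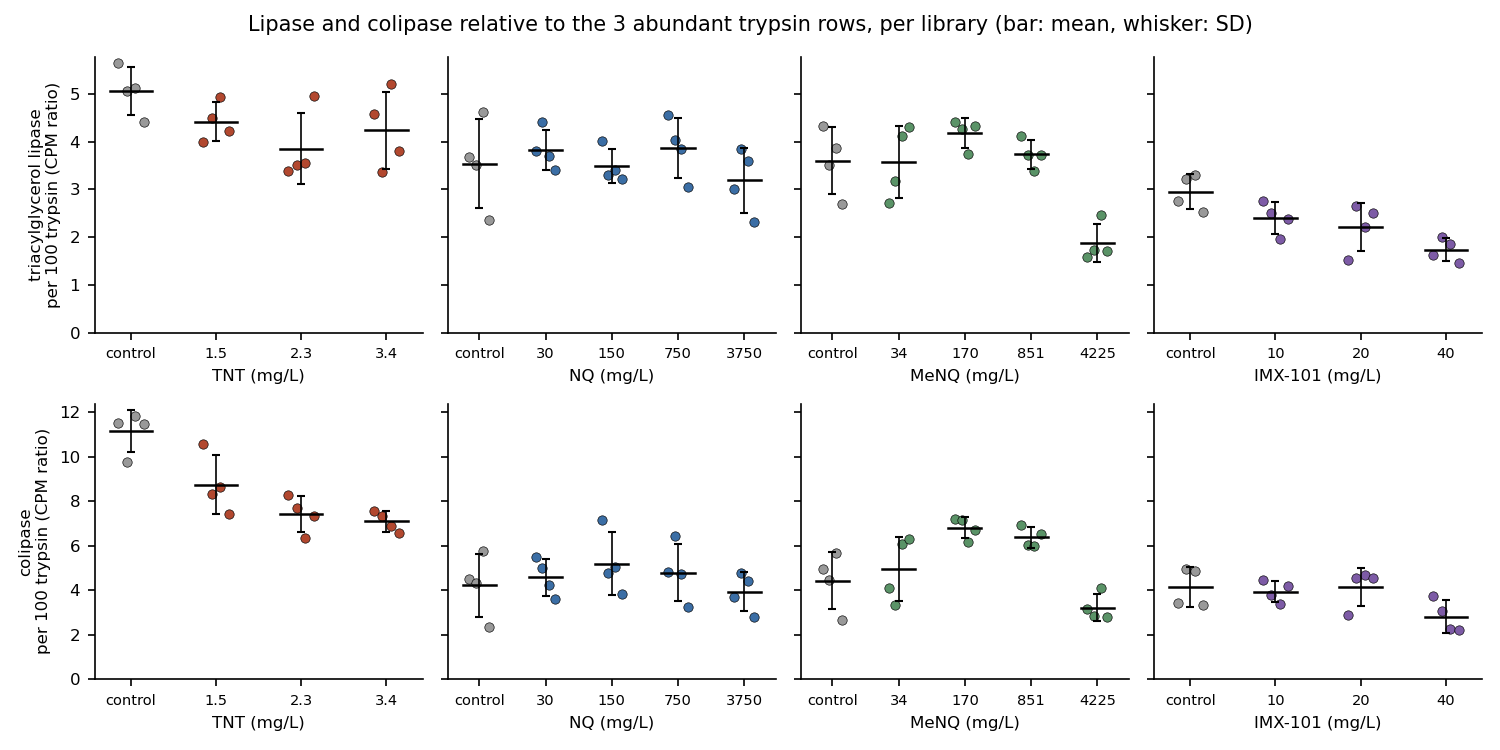
Pancreatic triacylglycerol lipase-like (top) and colipase-like (bottom) in CPM per 100 CPM of the 3 main trypsin rows, per library by dose in mg/L, with controls at the left, for the 4 exposures, bars marking group means and whiskers the SD. The lipase ratio lies wholly below controls at the highest MeNQ and IMX-101 doses, and the colipase ratio lies below them at 2.3 and 3.4 mg/L TNT and above them at 170 and 851 mg/L MeNQ.

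Members varied between experiments as well as within them, which is given as a description. The 4 experiments had control groups of their own and mostly different lanes. These, and any difference in cohort, cannot be told apart. Some TNT libraries shared lane 3 with NQ libraries or lane 5 with MeNQ libraries. The row named cathepsin D, the main aspartic protease of lysosomes, had 7035 counts in 15 of 16 TNT libraries and none in the other 56 libraries. The limits set by a count of 0 were 0.0155 CPM over the NQ libraries, 0.0109 CPM over the MeNQ libraries and 0.0179 CPM over the IMX-101 libraries, for counting error only. Carboxypeptidase M-like, whose mammalian relative sits on the cell surface, showed the reverse. It had 0 counts in 16 TNT libraries (a limit of 0.0192 CPM) and counts in all 20 NQ, 20 MeNQ and 16 IMX-101 libraries, with levels from 0.394 to 108.6 CPM. Chymotrypsinogen B1 had 1416 counts in TNT libraries and 9, 21 and 22 elsewhere. Each of these rows is a single assembled transcript. Whether reads of the same gene fell on other rows was not tested, so a row without counts does not show a silent gene.

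Levels of the called TNT members also differed between control groups, with each exposure scaled by itself. Colipase-like ran from 1166 to 1649 CPM in TNT controls and from 167 to 728 CPM in the other controls, and inactive pancreatic lipase-related protein 1 from 13.9 to 28.8 CPM and from 0 to 6.87 CPM. Pepsinogen C went the other way, from 2.49 to 5.86 CPM in TNT controls and from 8.98 to 18.9 CPM in the others. Trypsin isoform X5 per 100 CPM of the trypsin precursor was 43.9 ± 0.6 in TNT controls, 53.9 ± 3.2 in NQ controls, 51.5 ± 5.0 in MeNQ controls and 56.6 ± 1.7 in IMX-101 controls (SD, n = 4 each).

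Over all 72 libraries the rows most like the trypsin precursor, by Pearson's r of log2 CPM centred on the control mean of the exposure and among rows averaging at least 5 CPM, were MGC82838 protein (r = 0.942, Spearman's rho 0.907), a hypothetical protein (r = 0.921) and PDIA2 (r = 0.908), the acinar disulfide isomerase. Among the members, trypsin isoform X5 (r = 0.971), trypsin-like (0.902), chymotrypsinogen 2-like (0.892) and trypsin isoform X3 (0.81) followed it most closely. The lipase (0.764) and colipase-like (0.731) came next. Other endopeptidases were lower: elastase 3B (0.578), the Xenopus laevis trypsin row (0.46), chymotrypsin-like (0.387), chymotrypsinogen B1 (0.058) and the trypsin family protein (−0.047). Inactive pancreatic lipase-related protein 1 stood at −0.02, with counts in 61 of 72 libraries. Pepsinogen C had no close match: its most similar rows were a chloride transporter of the SLC26A9 type (r = 0.471), cornifelin (r = 0.45) and potassium-transporting ATPase alpha chain 1, the gastric acid pump (r = 0.448). For cathepsin E-A, the cathepsin row with the highest mean CPM over the 72 libraries, they were protein lifeguard 1-like (r = 0.52), iodotyrosine deiodinase (r = 0.471) and a methionine sulfoxide reductase row (r = 0.471). The libraries come from 4 experiments and often share lanes, so these values describe the 72 libraries and carry no p. MGC82838 protein averaged 14610 CPM and the hypothetical protein 3956 CPM, and their names do not say what they encode.

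Several member rows had few or no counts in whole tadpoles. A row is 1 assembled transcript, so few counts on it do not show that the gene itself was silent. Cathepsin A and cathepsin B rounded to 0 counts in all libraries, pepsin A-like was counted in 1 library, cathepsin K in 3 and cathepsin S in 4. A row named as a trypsin family protein had 48 counts over 3 libraries at 3.4 mg/L TNT and 0 in TNT controls, at least 11.6-fold higher if 3 counts are put in place of the controls' 0, and was not called (edgeR adjusted p = 0.243). It had 0 counts at 851 mg/L MeNQ and 128 in MeNQ controls, at least 26.0-fold lower, again without a call (edgeR adjusted p = 0.267). It was present in 37 of 72 libraries in all.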

How the data were processed

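RNA sequencing libraries of whole Rana pipiens tadpoles were analysed from estimated counts per assembled transcript, which the authors made with Salmon (version not given in the sources used here) after bcl2fastq 1.8.4, per the submitters' processing notes. The deposited tables give 1 column per sequencing run, and the 134 runs were summed per library and rounded (62 libraries had 2 runs and 10 had 1). Protein names are the authors' best database hits, and 1 member had a hit with an E-value over 1e-05. Groups came from the sample labels. Each exposure was fitted with its own control in edgeR 4.0.16 (R 4.3.3): rows kept by filterByExpr, TMM scaling, quasi-likelihood F test and Benjamini-Hochberg adjustment over all rows tested, at 0.05. MeNQ was compared with NQ as a contrast of responses in 1 fit of their libraries. Standard errors were derived from the F statistic and intervals are 95%. The fits were also run on simulated counts. These varied less between replicates than the data did, so that run does not show how the fits perform here. Members are named where called, where among the 3 most abundant of their role, or, outside the members, where among the first of a marker list; any other member was chosen after its values were seen. The members and lists were chosen with earlier results of these data known. Replicates were separate beakers, per the labels' protocols, so p-values measure the spread between beakers of 1 experiment per exposure. No 2 replicates were alike enough to be 1 library, with a chi-square per degree of freedom of at least 17.3 over 108 pairs. Alternatives were DESeq2 1.42.0 (Wald test, size factors), no filter, the mean of runs, sums by protein name, a replicate block, leaving out single libraries and, added after the data were seen, sequencing lane as a term. No transcript sequence or length was used here.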

Additional observations from a re-analysis of the deposited data

Results flagged for a closer look

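Within groups of 4 libraries, 3 of 189 groups checked held a library far from the other 3 by Dixon's ratio (gap over range), beside the 5% of groups, about 1 in 20, that chance flags. Cathepsin L2 at 3750 mg/L NQ had a ratio of 1.0, with 0.114 CPM in library A from a single count and 0 CPM in the others. Leukocyte elastase inhibitor in NQ controls had a ratio of 0.885, with library D at 268.6 CPM and the others between 320.8 and 327.6 CPM. Mast cell carboxypeptidase A-like at 40 mg/L IMX-101 had a ratio of 0.84, with library A at 11.7 CPM and the others between 10.3 and 10.5 CPM.

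The responses to MeNQ and NQ, which were given in separate experiments, differed for 4 members by the contrast of the responses itself. At 1.4 mmol/L trypsin isoform X3 differed by 1.609 and trypsin isoform X5 by 1.675 on the log2 scale. At 36 mmol/L cathepsin L2 differed by 6.928 and tubulin polyglutamylase TTLL7 by −0.795.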

How the results depend on the processing

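The number of members called moved by over 1.5 times in these cases, whose cause was not tested. The DESeq2 Wald test called 3 at 1.5 mg/L TNT (1 by edgeR), 6 at 150 mg/L NQ (0), 5 at 3750 mg/L NQ (1), 1 at 4225 mg/L MeNQ (0), 5 at 10 mg/L IMX-101 (0), and between MeNQ and NQ 7 at 1.4 mmol/L (2) and 1 at 7.2 mmol/L (0). How many of all rows the DESeq2 Wald test called was not counted, so its numbers have no background here. Without a filter 1 member was called at 36 mmol/L (2 with it), and with sums by protein name 1 at 1.4 mmol/L. With the lane as a term 0 were called at 1.5 mg/L TNT.

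Library letters did not pair the samples: deviations of same-letter libraries correlated between −0.066 and 0.085. With the replicate block 0 members were called at 1.5 mg/L TNT, 2 at 2.3 mg/L TNT, 4 at 150 mg/L NQ, 1 at 20 mg/L IMX-101 and 0 between MeNQ and NQ at 36 mmol/L.

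Leaving out single libraries gave 0 to 2 calls at 1.5 mg/L TNT, 2 to 4 at 2.3 mg/L, 5 to 10 at 3.4 mg/L, 0 to 3 at 150 mg/L NQ (3 without NQ control D), 1 to 2 at 3750 mg/L NQ (2 without exposed library C), 1 to 3 at 20 mg/L IMX-101, 3 to 5 at 40 mg/L, and 0 to 5 at 1.4 mmol/L (5 without NQ control D) and 0 to 2 at 36 mmol/L between MeNQ and NQ. The other comparisons gave 0 throughout. At 3.4 mg/L TNT 8 were called without control A, the shallowest library at 1.675 M counts.

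Uncalled values changed sign for 19 results, the largest at −0.73 (cathepsin L2 after MeNQ). On the log2 scale, leaving out single libraries gave, at 3.4 mg/L TNT, −0.145 to 0.266 for cathepsin E-A (lane term −0.126). At 3750 mg/L NQ it gave −0.057 to 0.115 for cathepsin O-like (lane term −0.012), −0.142 to 0.334 for colipase-like, −0.14 to 0.302 for pancreatic triacylglycerol lipase-like, −0.198 to 0.199 for pepsinogen C (replicate block −0.039, lane term −0.109) and −0.201 to 0.121 for trypsin isoform X3 (lane term 0.005, summed by protein name 0.275). At 4225 mg/L MeNQ it gave −0.13 to 0.027 for carboxypeptidase B2-like, −0.107 to 0.011 for carboxypeptidase vitellogenic-like, −1.504 to 0.183 for cathepsin L2, −0.358 to 0.941 for inactive pancreatic lipase-related protein 1 (lane term −0.081), −0.169 to 0.155 for mast cell carboxypeptidase A-like (lane term 0.02), −0.439 to 0.073 for pepsinogen C and −0.257 to 0.032 for the trypsin precursor. At 40 mg/L IMX-101 it gave −0.141 to 0.134 for cathepsin E-A, −0.916 to 0.76 for inactive pancreatic lipase-related protein 1 (replicate block −0.976), −0.094 to 0.463 for pepsinogen C and −0.211 to 0.01 for the trypsin precursor. Between MeNQ and NQ at 36 mmol/L it gave −0.017 to 0.191 for cathepsin O-like and −0.461 to 0.062 for pepsinogen C.

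Other highest-dose values kept their direction under the alternatives run, for members called there or among the 3 most abundant of their role. Further members named in the text were not in that check. At 3.4 mg/L TNT granzyme H was called with DESeq2 size factors, the mean of runs, sums by protein name and the DESeq2 Wald test. The Xenopus laevis trypsin row was called there with the lane term and the DESeq2 Wald test. Of 24 called values over all comparisons, 12 kept the call in every fit that left out 1 library. Over all 24 the call was lost in 66 of 224 such fits. The lane could not be fitted for 20 and 40 mg/L IMX-101, which shared no lane with their controls. Members with few counts, such as cathepsin L2, carry large errors at this depth.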
